A study of Mus musculus with 6 samples.

Results

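The TNF superfamily set was defined by gene symbol, with earlier results of these data known. It took every gene whose symbol starts with Tnfsf or Tnfrsf, the Traf genes numbered with 1 digit, and Tnf, Lta, Ltb, Ltbr, Cd40, Cd40lg, Cd27, Fas, Fasl, Eda, Edar, Ngfr and Relt. On this array 46 such genes had a probe set of their own, out of 18193 genes in all, and 82 of the array's 45101 probe sets named 1 of them. They were 13 ligands, 26 receptors, 6 TRAF adaptors and Tnfsf13os, a non-coding transcript named for its place opposite Tnfsf13. Transcript levels were measured as signal intensity on an Affymetrix array, with each gene read from its brightest probe set. A gene was tested when the mean log2 signal of that probe set reached 8.08 (a signal of 271), which 32 members did.

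RNA came from alveolar type II cells, the surfactant-making cells of the lung epithelium, of mice aged 2 months. In the deleted group (Insig1 ∆/∆, Insig2 -/-) a Cre recombinase controlled by doxycycline (SpC-rTTA with Otet-CRE) had removed floxed Insig1. The drug was given from E6.5 to E12.5 in both groups. Control mice were Insig1 flox/flox and Insig2 -/- but had no SpC-rtTA or no Otet-CRE, so the absence of Insig2 was common to both groups. INSIG proteins restrain the SREBP factors of lipid synthesis, and the comparison asks what losing Insig1 as well does to these cells. Each group had 3 arrays, each of 1 independent RNA pool, and how many mice made up a pool was not stated. Because every deleted mouse and no control mouse had both Cre components, the presence of active Cre and the loss of Insig1 cannot be told apart. The rtTA is driven by the SFTPC promoter, while the RNA is that of the whole isolate.

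TNF superfamily ligands are mostly membrane proteins that act as trimers on receptors of neighbouring cells. Receptors with a death domain, such as TNFR1 and FAS, can assemble caspase-activating complexes. Others, such as TNFR2, CD40 and 4-1BB, bind TRAF adaptors, which recruit ubiquitin ligases and kinases that activate NF-kappaB and MAP kinases. In the lung these pathways are known for epithelial injury responses and for exchanges between epithelium, macrophages and lymphocytes.

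Among the type II markers, Sftpc read between 80090 and 143129 and Sftpb between 88446 and 112514 over the 6 pools, and none of the 16 markers measured passed the test (limma). Before adjustment, 1 marker was higher and 2 were lower with p under 0.05. Array medians lay between 426 and 479. Control pool 3 stood furthest from the others on the first principal component and had the lowest array weight (0.437). The isolates were not type II cells alone. The airway marker Scgb1a1 gave the highest signal on every array (141333 to 197205), and the airway marker Cyp2f2 read between 91313 and 134918. Of 17 macrophage markers on the array 8 rose, where 0.625% of all genes tested were called higher. Every deleted pool lay above every control pool for 13 of them, against 9.2% of all genes. Adgre1, Ctsk, Lyz2 and Lgals3 had groups that overlapped, and the log2 fold changes of Lyz2 (-0.094) and Lgals3 (-0.23) were under 0. Lyz2 read between 100098 and 138065, near the highest signal of each array, and whether a rise could show there was not tested. A change in the number of cells of a type and a change in RNA per cell cannot be told apart in such pools.

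A single member passed the test. Tnfrsf9, which encodes the costimulatory receptor 4-1BB, was 2.58-fold higher in deleted pools, and no member was lower past the threshold (limma, adjusted p under 0.05 over 12952 genes). Over all genes tested 0.649% were called, 0.625% as higher and 0.0232% as lower. With no adjustment (p under 0.05) 3 members were higher, where 6.05% of all genes were, and 0 lower, where 6.02% were. Every deleted pool lay above every control pool for 4 members, against 9.2% of all genes, and below for 1, against 7.9%. These 5 are 15.6% of the 32 members, close to the 17.1% found over all genes. The median log2 fold change (deleted minus control) of the 32 was 0.13 against -0.0049 for all genes tested, and 0.044 over all 46 members. With the exception of Tnfrsf9, the members above the filter lay between -0.49 (Relt) and 0.73 (Tnfsf13os).

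**Figure D1:**
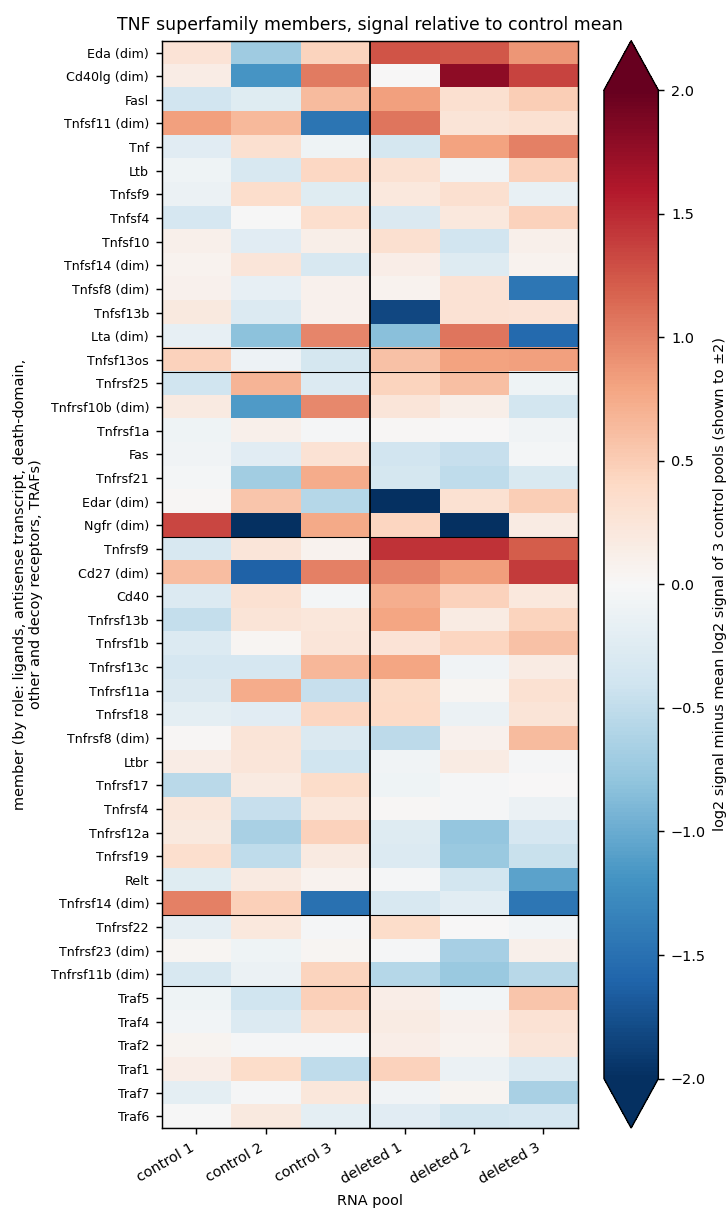
Colour gives the log2 signal of each of the 46 members (rows, by role) in each RNA pool (columns), minus the mean of the 3 control pools; names marked dim lie below the brightness filter. Tnfrsf9 is high in all 3 deleted pools, while most rows mix both colours within a group.

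On the Tnfrsf9 probe set the control pools read 936, 1373 and 1223, and the deleted pools 3154, 3160.5 and 2704. The lowest deleted pool was therefore almost double the highest control pool in signal, and neither group had a pool that stood apart. The means were 1177 ± 222 and 3006 ± 262 (SD, n = 3 each). The log2 fold change was 1.37 ± 0.17 (SE), with a 95% interval of 0.98 to 1.75 and an adjusted p of 0.0092 (limma). Among the 12952 genes it ranked 51st by increase and 26th by p. With deleted pool 1 or 2 left out, the value was 1.33 in each case. The adjusted p was then 0.072 and 0.075 (limma), so the call was lost. Over all genes the calls also fell, from 84 to 23 and 15. Leaving out control pool 3 kept Tnfrsf9 the only member called.

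Tnfrsf9 had a pair of dimmer probe sets. The second brightest read 236, 26.7 and 70.2 in controls and 851.5, 761 and 495 in deleted pools, a log2 difference of 3.17 that also separates the groups. It lay below the filter, and in a fit of all 45037 non-control probe sets without a filter, where 0.151% were called, its adjusted p was 0.22 (limma). The dimmest read between 64.5 and 153 in all pools, with a log2 difference of -0.063, and the groups overlapped.

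The ligand of 4-1BB is the product of Tnfsf9, known on antigen-presenting cells. Tnfsf9 read 2721, 3769.6 and 2506 in control pools and 3432, 3703 and 2669 in deleted pools. These groups overlapped almost completely, with a log2 fold change of 0.13 ± 0.19 (SE), an interval of -0.29 to 0.55 and an adjusted p of 0.84 (limma). The adaptors that 4-1BB uses, Traf1 and Traf2, had values of 0.026 ± 0.25 and 0.14 ± 0.13, neither past the threshold. That Tnfrsf9 differed from its ligand in response was not tested.

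Activated T and NK cells, dendritic cells and some myeloid cells are known to carry 4-1BB, so the markers of these cells are given beside it. Summed over 16 T and NK cell markers, the signal ran from 11597 to 25222 in controls and from 19292 to 24342 in deleted pools, which overlap. None of the 14 tested passed, with 3 higher at an unadjusted p under 0.05 (limma). Their median log2 value was 0.44, and 1 of them (Cd2) had every deleted pool above every control pool. Of the defining markers, Cd4 and Cd8b1 lay below the filter, and Cd3e (0.017), Cd3g (0.40), Cd3d (1.41) and Cd8a (-0.65) had groups that overlapped. Over 11 dendritic cell markers the sum ran from 10194 to 15393 in controls and from 20061 to 26942 in deleted pools, and Cd83 rose (log2 1.11). Of the 8 tested, 5 had every deleted pool above every control pool, while Zbtb46 (0.0071), Cd209a (0.32) and Irf8 (0.72) overlapped. Flt3, Xcr1 and Siglech of that list lay below the filter. Macrophage markers summed to between 203765 and 273905 in controls and between 288425 and 301235 in deleted pools. These macrophage sums came mainly from Lyz2 (-0.094), Lgals3 (-0.23) and Chil3 (1.06). For 10 B cell markers the ranges were 6521.5 to 13292 and 15331 to 19825, and Fcer2a rose. Of the 8 tested, Fcer2a (2.13), Ighm (1.28) and Cd22 (0.84) had every deleted pool above every control pool, while Ms4a1 (0.19), Cd79a (0.56), Cd79b (0.19), Blk (0.29) and Fcmr (0.32) overlapped and Pax5 and Cr2 lay below the filter. The sums of 8 neutrophil markers ran from 2841 to 4711 and from 5566 to 8445.5. S100a8 (1.01) and S100a9 (0.95) separated the groups and Ngp (0.12) did not. Mpo, Elane, Csf3r, Cxcr2 and Camp lay below the filter with groups that overlapped, all but Csf3r with values under 0. No marker was listed at 0, and the part of these cell types in the Tnfrsf9 difference was not tested.

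**Figure D2:**
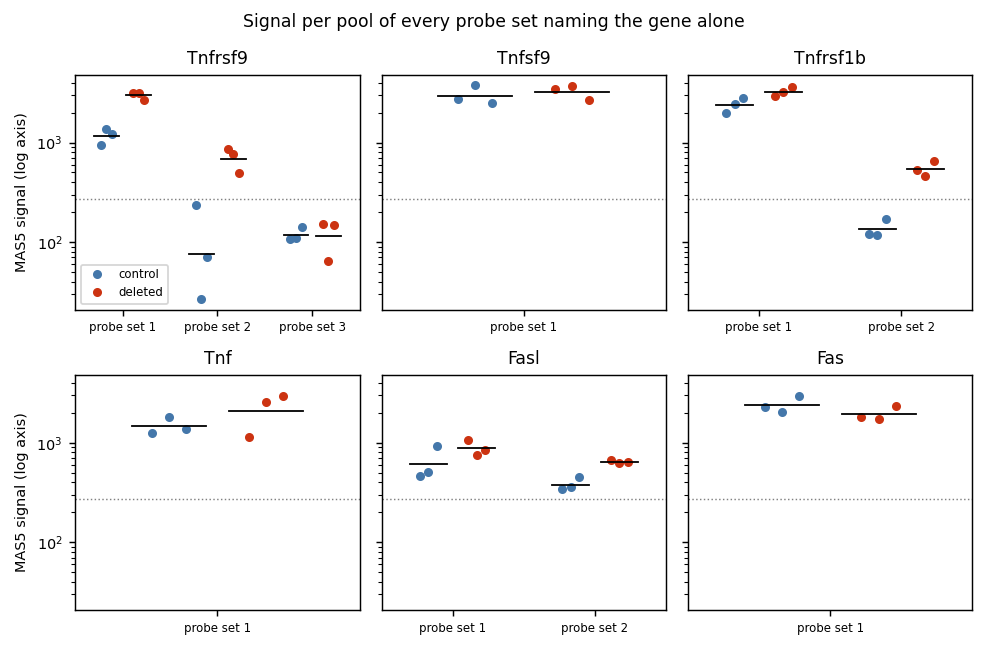
MAS5 signal (vertical, log axis) in each of 3 control and 3 deleted pools for every probe set that names Tnfrsf9, Tnfsf9, Tnfrsf1b, Tnf, Fasl or Fas alone, in order of brightness; short lines are geometric means and the dotted line is the brightness filter (271). The groups separate on the first and second probe sets of Tnfrsf9, on both of Tnfrsf1b and on the second of Fasl.

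Upstream sequence is shown for Tnfrsf9, the member that was called, for Ltb, a ligand gene with a match to a motif of NF-kappaB, and for Birc3, Tnfaip3 and Nfkbie, genes downstream of the receptors that rose. Nfkbiz, which also rose, had no window. RefSeq windows (GRCm38.p6) were found for 38 of the 46 members, with none for Cd40lg, Tnfsf4, Tnfsf9, Tnfsf13os, Tnfrsf10b, Cd40, Tnfrsf11b and Tnfrsf22. The 250 bases before the most upstream listed start were searched on both strands for the NF-kappaB motif, the AP-1 motif TGANTCA and the sterol regulatory element TCACNCCAC, the site type bound by SREBP. Matches are in capitals.
Tnfrsf9, chr4:150919905-150920154, plus strand: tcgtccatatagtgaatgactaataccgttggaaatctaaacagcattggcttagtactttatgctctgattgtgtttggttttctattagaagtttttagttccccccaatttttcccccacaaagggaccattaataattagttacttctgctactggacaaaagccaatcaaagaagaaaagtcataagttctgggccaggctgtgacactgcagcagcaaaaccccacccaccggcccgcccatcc
Ltb, chr17:35194257-35194506, plus strand: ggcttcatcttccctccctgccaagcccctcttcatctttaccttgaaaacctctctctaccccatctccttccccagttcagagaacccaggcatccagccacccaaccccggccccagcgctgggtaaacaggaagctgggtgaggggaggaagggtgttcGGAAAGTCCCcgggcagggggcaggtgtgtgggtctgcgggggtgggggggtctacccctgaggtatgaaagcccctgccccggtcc
Birc3, chr9:7873171-7873420, minus strand: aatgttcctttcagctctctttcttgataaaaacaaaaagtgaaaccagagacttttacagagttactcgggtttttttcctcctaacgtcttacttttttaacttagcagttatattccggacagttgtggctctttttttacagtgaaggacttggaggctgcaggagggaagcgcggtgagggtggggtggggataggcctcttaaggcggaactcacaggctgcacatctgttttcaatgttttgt
Tnfaip3, chr10:19015411-19015660, minus strand: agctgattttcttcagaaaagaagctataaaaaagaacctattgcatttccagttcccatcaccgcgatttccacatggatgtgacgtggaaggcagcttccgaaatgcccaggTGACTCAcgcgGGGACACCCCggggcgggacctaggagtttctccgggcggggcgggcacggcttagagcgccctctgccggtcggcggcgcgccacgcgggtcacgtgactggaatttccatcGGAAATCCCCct
Nfkbie, chr17:45555450-45555699, plus strand: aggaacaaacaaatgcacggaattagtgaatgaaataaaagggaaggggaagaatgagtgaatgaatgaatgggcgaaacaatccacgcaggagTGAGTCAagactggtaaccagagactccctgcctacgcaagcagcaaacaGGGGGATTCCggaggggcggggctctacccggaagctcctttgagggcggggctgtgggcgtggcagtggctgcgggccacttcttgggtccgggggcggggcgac
The windows of Tnfrsf9 and Birc3 held none of these letters, which says nothing of sites elsewhere. Of the 3 windows of downstream genes, 2 (Tnfaip3 and Nfkbie) held both an NF-kappaB and an AP-1 match. An NF-kappaB match was found in 2 of 38 members (5.26%), Ltb and Tnfrsf8, against 3.74% of 27025 genes. An AP-1 match was found in 3 (7.89%), Tnfsf14, Fas and Tnfrsf8, against 6.85% of all genes. The sterol element was found in 0 of the 38 and in 1.03% of all genes. No motif in capitals overlaps another. A match is a run of letters and not evidence of binding.

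Of the 13 ligands, 7 passed the brightness filter and none was called (limma), with 0 at an unadjusted p under 0.05. TNF itself, the main inflammatory ligand of TNFR1 and TNFR2, read 1261, 1839.8 and 1382 in controls and 1154, 2573 and 2976 in deleted pools. Deleted pools 2 and 3 lay above every control and deleted pool 1 below every control. The log2 fold change was 0.49 ± 0.32 (SE) with an interval of -0.24 to 1.22 (adjusted p = 0.60, limma), and it became 0.91 without deleted pool 1 (adjusted p = 0.21). Ltb, Tnf and Lta follow each other in the RefSeq gene order. Ltb, which forms heterotrimers with lymphotoxin alpha, read 1072, 915 and 1516 in controls and 1410, 1086 and 1575 in deleted pools, with a value of 0.23. Lta lay below the filter, at 101, 63.7 and 221 in controls and 62.9, 236 and 38.3 in deleted pools.

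Fasl, the death ligand of cytotoxic lymphocytes, read 467, 512 and 938 in controls and 1076, 757 and 856.5 in deleted pools. Control pool 3 fell among the deleted pools and the other controls below them. The log2 fold change was 0.55 ± 0.29 (SE), with an adjusted p of 0.49, and 0.86 without control pool 3 (adjusted p = 0.16). A dimmer Fasl probe set read 340, 357 and 451 in controls and 673, 626 and 643.5 in deleted pools, with no overlap and a log2 value of 0.77 (adjusted p = 0.29 over 27022 probe sets, limma). Cytotoxic markers had the same high control pool. Prf1 read 582, 567.5 and 1027 in controls and 1018.5, 795 and 929 in deleted pools, and Nkg7 525, 507 and 1317 against 1163, 1167 and 1634. Their part in the Fasl values was not tested.

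The other ligands with a measured level lay near 0 or varied widely. Tnfsf10, the death ligand TRAIL, had a log2 value of 0.015 and Tnfsf4, the OX40 ligand, 0.13. Tnfsf13b, the B cell survival factor BAFF, had -0.42 with an interval of -1.60 to 0.76, and its deleted pools read 128, 551 and 543. A Tnfsf13b probe set of nearly equal brightness read 370, 509 and 506 in controls and 248.5, 366 and 372.5 in deleted pools. There deleted pool 3 lay just above the lowest control, and the value was -0.50 ± 0.28 (SE; adjusted p = 0.60 over 27022 probe sets, limma). Cd40lg, Eda, Tnfsf8, Tnfsf11, Tnfsf14 and Lta lay below the filter. The brightest Eda probe set (46.2 to 103 in controls, 140 to 181 in deleted pools) separated the groups at a dim level where the log ratio is least certain.

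At the locus of Tnfsf12 and Tnfsf13, which encode TWEAK and the plasma cell factor APRIL, probe sets could not be given to a single ligand. One that names Tnfsf12, Tnfsf13 and their fusion Tnfsfm13 read 3148, 2558 and 2110 in controls and 4251, 5069 and 4315 in deleted pools. Its log2 fold change was 0.82 ± 0.16 (SE), with no overlap, but the adjusted p was 0.11 (limma, over 27022 probe sets, of which 0.322% were called). Another, naming Tnfsf12 and the fusion, had -0.058 and overlapping groups. Tnfsf13os read 758, 509 and 429 in controls and 822, 954.5 and 967 in deleted pools, a log2 fold change of 0.73 ± 0.24 (unadjusted p = 0.014, adjusted p = 0.29, limma). Its second probe set, below the filter, gave -0.57, the opposite direction.

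**Figure D3:**
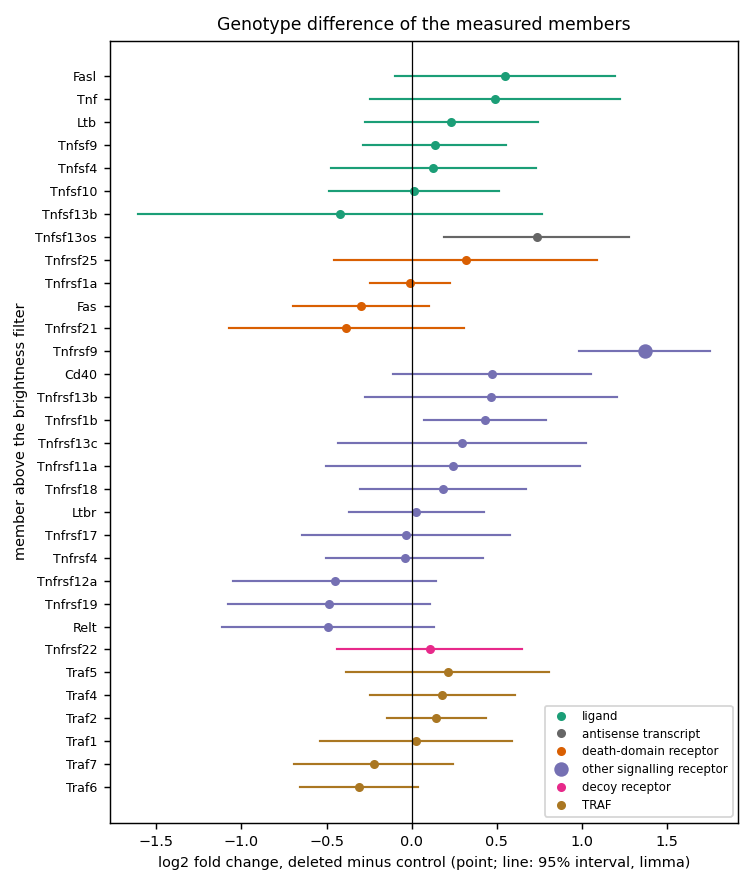
Log2 fold change, deleted minus control (horizontal; points), with its 95% interval from limma (lines) for the 32 members above the filter, coloured by role; a larger point marks adjusted p under 0.05. Intervals leave out 0 for Tnfrsf9, Tnfsf13os and Tnfrsf1b, and the larger point is that of Tnfrsf9 alone.

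The TNF receptors gave different values. Tnfrsf1a encodes TNFR1, the death-domain receptor found on most cells, and read 7870, 8933 and 8237 in controls and 8461, 8380 and 7973 in deleted pools. Its groups overlapped and its interval was narrow, from -0.24 to 0.22 around -0.012, with a sign that turned under a shift to a common median (0.067), with array weights (0.019) and without control pool 2 (0.038) or deleted pool 3 (0.015). Tnfrsf1b encodes TNFR2, which lacks a death domain and is prominent on leukocytes and endothelium. It read 1985, 2469 and 2835 in controls and 2922, 3224 and 3608 in deleted pools. All deleted pools lay above all controls, by a small margin, and the log2 fold change was 0.43 ± 0.16 (SE; unadjusted p = 0.024, adjusted p = 0.34, limma).

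A second Tnfrsf1b probe set separated the groups much further. It read 121, 117.5 and 168.5 in controls and 530.5, 457 and 650 in deleted pools, a log2 difference of 2.01. Its mean log2 signal of 8.07 placed it just under the filter. In the fit of all probe sets without a filter its adjusted p was 0.089 (limma), second among all the members' probe sets after the brightest of Tnfrsf9. Both probe sets name Tnfrsf1b alone, and which part of the transcript each reads was not analysed here. Macrophage markers had a median log2 value of 0.98, with Lyz2 (-0.094, near the top of the signal range) and Lgals3 (-0.23) under 0. Their part in the Tnfrsf1b values was not tested.

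Of the 7 death-domain receptors 4 passed the filter and none was called (limma), with 0 at an unadjusted p under 0.05. Fas, the receptor of Fasl and a trigger of apoptosis, read 2274, 2048 and 2929 in controls and 1832, 1732 and 2327 in deleted pools. The highest deleted pool lay among the controls, and the value was -0.30 ± 0.18 (SE) with an interval of -0.69 to 0.10. Tnfrsf21, or death receptor 6, had -0.38 on its brightest probe set and -0.40 on the next. On that dimmer one the deleted pools (666, 695 and 710.5) lay below the controls (832, 735 and 1236). Tnfrsf25, the death receptor 3 of lymphocytes, had 0.32 with groups that overlapped. Edar, Ngfr and Tnfrsf10b, the TRAIL receptor, lay below the filter.

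The other signalling receptors numbered 16, of which 13 were tested. Tnfrsf12a, the TWEAK receptor Fn14 that injured epithelia are known to induce, read 9216, 5114 and 11103 in controls and 6761, 4707 and 6408 in deleted pools. Control pool 2 fell among the deleted pools. The log2 fold change was -0.45 ± 0.27 (SE; adjusted p = 0.54, limma), and without control pool 2 it was -0.78 with an adjusted p of 0.048, the single case of a member called lower. A second probe set of nearly equal brightness read 8511, 6429 and 9711.5 in controls and 5425, 5368 and 5627 in deleted pools. There the groups did not overlap, and the value was -0.57 ± 0.15 (SE; adjusted p = 0.26 over 27022 probe sets, limma).

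Lower values without a call were also those of Relt (-0.49), an orphan receptor of the family, and Tnfrsf19 (-0.49), known as TROY. Relt read 778, 1033 and 959 in controls and 898, 710 and 434 in deleted pools, where deleted pool 1 lay among the controls. Tnfrsf19 read 1019, 568 and 919 against 674, 484.5 and 594, where control pool 2 lay among the deleted pools. Airway markers lay lower as well (median log2 -0.34, 2 of 12 tested fell and none rose). Their summed signal ran from 512517 to 660307 in controls and from 417383 to 536978 in deleted pools. It was mainly that of Scgb1a1, Cyp2f2 and Scgb3a2. The part of airway markers in the Relt and Tnfrsf19 values was not tested.

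Receptors of the lymphotoxin, CD40 and B cell factor systems were not called. Tnfsf14, a ligand of the lymphotoxin beta receptor known as LIGHT, was dim in every pool, at 30.6, 34.2 and 23.3 in controls and 31.9, 24.2 and 30.3 in deleted pools. Ltbr, which receives lymphotoxin beta and drives the alternative NF-kappaB pathway, read 3592.5, 3827 and 2454 in controls and 3085, 3620.2 and 3196.5 in deleted pools, with a value of 0.027 ± 0.18 (SE). Cd40, the costimulatory receptor of antigen-presenting cells, had 0.47 on its brightest probe set and 0.10 on the next. The BAFF and APRIL receptors Tnfrsf13b, Tnfrsf13c and Tnfrsf17, found on B and plasma cells, had 0.46, 0.29 and -0.035. Tnfrsf13c, the BAFF receptor, was high in control pool 3 (1119, where the other controls read 556 and 559) and in deleted pool 1 (1211, where the others read 673 and 786). The B cell antigen receptor gene Cd79a had its highest signals in the same pools, 935 and 1134.5. So did Ms4a1, Cd79b, Blk, Fcmr and Ighm. Fcer2a and Cd22, in contrast, had their lowest deleted signals in deleted pool 1 (1755 and 713). The part of B cells in the Tnfrsf13c values was not tested.

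Tnfrsf4 and Tnfrsf18, neighbours in the RefSeq gene order that encode the T cell costimulators OX40 and GITR, had -0.041 and 0.18. Tnfrsf11a, which encodes the RANK receptor, had 0.24. Cd27, Tnfrsf8 and Tnfrsf14 lay below the filter, Tnfrsf8 narrowly so with a mean log2 signal of 8.05. Of the decoy receptors, which bind ligand without a death signal, Tnfrsf22 alone was bright enough. Its probe sets differed in direction (0.11 on the brightest, -0.78 on the next), and Tnfrsf11b and Tnfrsf23 lay below the filter. Tnfrsf11b, the soluble RANKL decoy osteoprotegerin, read 181, 209 and 310.5 in controls and 154, 135 and 155 in deleted pools, a dim but separate pair of groups.

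All 6 TRAF genes of the set were tested, and none was called (limma), with 0 at an unadjusted p under 0.05. Traf3 had no probe set of its own by the platform annotation, so it was not among them. Traf6, the adaptor shared with IL-1 and Toll-like receptors, read 1570, 1805.5 and 1379 in controls and 1346, 1221 and 1249 in deleted pools. No pool overlapped, and the value was -0.31 ± 0.15 (SE; adjusted p = 0.46, limma). Its second probe set gave 0.48, in the opposite direction, so the probe sets of Traf6 do not settle a direction. Traf2, the adaptor of TNFR1 and TNFR2 complexes, read 1767, 1668 and 1679 in controls and 1861.5, 1790.3 and 2006 in deleted pools. The difference of 0.14 left the groups apart but within an interval of -0.14 to 0.43.

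Traf1, an adaptor without a ring domain that NF-kappaB is known to induce, read 3577, 4183 and 2300.0 in controls and 4495, 3015 and 2682 in deleted pools. Both groups spread widely, and the interval ran from -0.54 to 0.59. Traf7, which differs from the others in its carboxy-terminal repeats, read 1612, 1816 and 2166 in controls and 1756.5, 1929.5 and 1179 in deleted pools. Deleted pool 3 lay below every other pool, and the value was -0.22 ± 0.21 (SE). Traf4 and Traf5 had values of 0.18 and 0.21 with groups that overlapped. Of 10 members with at least 2 probe sets above the filter, 6 had the same sign on each. Tnfrsf22, Tnfsf10, Traf4 and Traf6 did not.

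Downstream of the receptors, 4 genes of the pathway lists rose and none fell, where 0.625% of all genes were called higher. Because the lists were chosen with earlier results of these data known, that share is a reference and the comparison is not a test. In the list of TRAF-associated ligases and deubiquitinases 2 of 19 tested genes rose. Birc3, the ubiquitin ligase cIAP2 that binds TRAF2, read 8550, 7082 and 6998 in controls and 15977, 15310.5 and 14832 in deleted pools, a log2 fold change of 1.03 ± 0.11 (SE; adjusted p = 0.0052, limma). Tnfaip3, the deubiquitinase A20 that ends TNF signalling, read 9228, 7351 and 9692 in controls and 14163, 16021 and 15897 in deleted pools (0.82 ± 0.13, adjusted p = 0.030, limma). In both genes the groups lay far apart. The list's median was 0.12.

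The list of NF-kappaB subunits and inhibitors also held 2 genes that rose, of 9 tested, with a median of 0.29. Nfkbiz, which encodes the nuclear regulator IkappaB-zeta, read 11561, 11912 and 10226 in controls and 23032, 21571 and 23301 in deleted pools (log2 1.01 ± 0.11, adjusted p = 0.0041, limma). Nfkbie, the inhibitor IkappaB-epsilon, read 1330, 1192 and 1790.4 against 3316, 2846 and 2892 (1.09 ± 0.17, adjusted p = 0.030, limma). The subunit genes Rela (-0.070), Relb (0.25) and Nfkb2 (0.29) and the inhibitor genes Nfkbia (-0.061) and Nfkbib (0.54) did not pass. With no adjustment (p under 0.05, limma) 4 of the 9 were higher, Nfkb2 and Nfkbib among them, and 0 lower. Nfkbia read between 96782.5 and 127185, where the highest signal of each array lay between 141333 and 197205. Whether a rise could show so near the top of the range was not tested. Second probe sets gave 0.15 for Birc3 and 0.21 for Nfkbiz, and 1.23 and 0.77 for Tnfaip3 and Nfkbie, none past the threshold in the fit without a filter.

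These calls varied with single pools. The adjusted p of Birc3 was 0.053 without deleted pool 2, while Nfkbiz passed without any 1 pool. Tnfaip3 missed the threshold without control pool 1 or any 1 deleted pool (0.096 to 0.17), and so did Nfkbie (0.13 to 0.16). Macrophage, neutrophil and dendritic cell markers also had medians above 0 (0.98, 0.95 and 0.88). The macrophage markers Lyz2 (-0.094, near the top of the signal range) and Lgals3 (-0.23) lay below 0. The part of these cell types in the calls was not tested.

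Among 9 genes of the death receptor complex and 15 kinases downstream of TRAFs none was called, with 1 higher in each list at an unadjusted p under 0.05 and medians of 0.18 and 0.032 (limma). Faf1, a FAS-associated factor, had 0.30 and Cflar, the caspase-8 inhibitor FLIP, 0.26. Ikbkb, the kinase of the canonical NF-kappaB pathway, had 0.29 and Map3k1 0.30. Of 11 TNF-inducible and ligand-shedding genes none was called either, with 3 higher at an unadjusted p under 0.05 and a median of 0.19 (limma). Tnfaip8l1 (0.58) and Litaf (0.45), which encodes a factor linked to TNF expression, had the smallest p there, and the TNF-shedding protease gene Adam17 had 0.19.

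**Figure D4:**
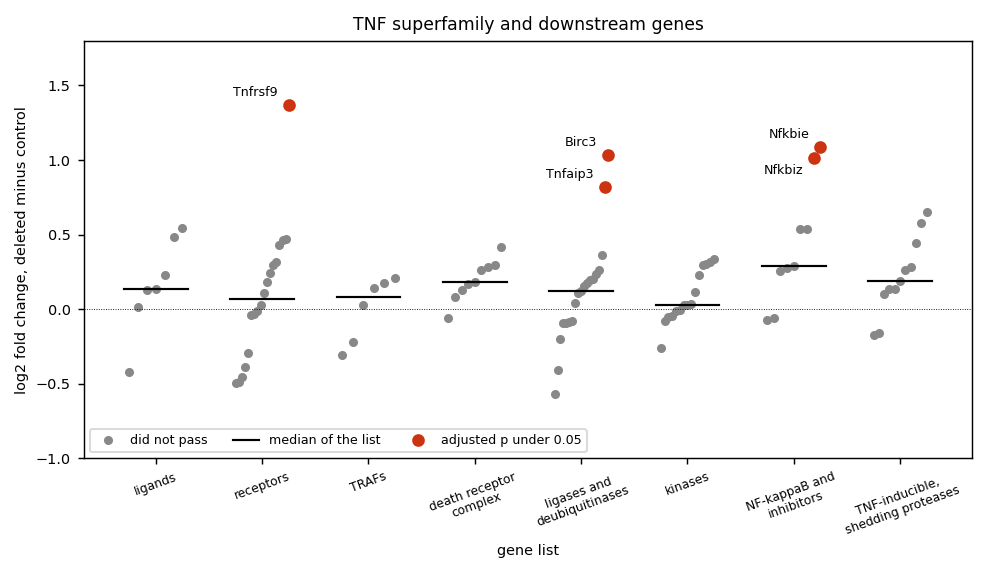
Log2 fold change, deleted minus control (vertical), of the tested ligands, receptors and TRAFs and of the genes in 5 downstream lists; each point is a gene, red points passed at an adjusted p under 0.05 (limma) and the line is the list's median. Tnfrsf9 stands above the other receptors at 1.37, and Birc3, Tnfaip3, Nfkbie and Nfkbiz lie between 0.82 and 1.09.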

How the data were processed

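The deposited table held a linear signal intensity for each probe set, made with MAS5 (no version stated), per the submitters' processing notes. Each of the 6 arrays held 1 RNA pool. MAS5 treats each array alone and gives dim probe sets noisy log ratios, and the number of arrays limits the precision. Genes were named from the platform annotation, using probe sets that name 1 gene. Signals under 1 were set to 1, log2 was taken, and probe sets under the 40th percentile of mean log2 signal over all 6 arrays were left out. The brightest probe set stood for each gene. The genotype term was tested two-sided with limma 3.58.1 (R 4.3.3; lmFit, then eBayes with trend). Benjamini-Hochberg adjustment ran over 12952 genes, and 0.05 was the threshold. Single probe sets were tested in a fit of all 27022 above the filter, or of all 45037. The steps were tested on simulated data. Single genes have no permutation test here because 3 pools against 3 allow no p under the threshold. P-values set the difference between groups against the spread between pools, moderated by eBayes. They do not give the spread between mice, as the number of mice per pool was not stated.

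The members and the gene lists were chosen with earlier results of these data known. By the rule for named genes, every member is accounted for, and values per pool are given for members past the threshold or at an unadjusted p under 0.05, the 3 largest and 3 smallest changes, the brightest ligands, receptors and TRAFs, and their partners. Pool values of Tnfrsf21, Tnfrsf13c, Tnfrsf11b, Tnfsf13b, Eda and Traf6 and the values of probe sets other than the brightest were added after they were seen. So were the markers set beside single members.

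Alternatives for scaling were quantile normalization, a common median and log2 after adding 16. For the model they were eBayes without trend, array weights, the pool number as a block and each pool left out. For probe sets they were a filter at the 60th percentile, none, and the mean over a gene's probe sets. The second brightest probe set was an alternative chosen after seeing the data. Upstream windows come from RefSeq (GRCm38.p6), and 1604 of 1604 overlapping windows on opposite strands matched as reverse complements.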

Additional observations from a re-analysis of the deposited data

How the results depend on the processing

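The count of genes called over all genes was 84, and it was 29 without an intensity trend, 259 with array weights, 132 with the replicate block, and between 15 and 477 with 1 pool left out. With all pools kept, the members called higher numbered 1 under each alternative of scaling, model and filter; with 1 pool left out they numbered 0 to 1 (0 without deleted pool 1 or 2). Members called lower numbered 0 to 1 with 1 pool left out (Tnfrsf12a without control pool 2) and 0 otherwise. The median over the members above the filter was 0.13 and lay between 0.083 (without deleted pool 1) and 0.21 (common median), and it was 0.044 over all 46 members with no filter.

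On its brightest probe set Tnfrsf9 passed in 13 of 15 alternatives, with a log2 fold change between 1.21 and 1.49 and adjusted p between 0.0014 and 0.075 (limma). On its second brightest probe set it did not pass (3.17, adjusted p = 0.22). Values near 0 changed sign. Tnfrsf1a, at -0.012, was 0.067 with a common median and 0.019 with array weights, and ran from -0.053 to 0.038 with 1 pool left out. Ltbr, at 0.027, was -0.017 with array weights, -0.17 without control pool 3 and -0.041 without deleted pool 2. Traf1, at 0.026, was -0.12 with array weights, -0.22 without control pool 3 and -0.19 without deleted pool 1. On its second probe set Tnfsf13os gave -0.57. Averaged over probe sets, Birc3 (0.59) and Nfkbiz (0.63) missed the threshold, as Nfkbie and Tnfaip3 did without an intensity trend. The cause was not tested.

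Pools of the same number did not deviate together throughout (correlations of 0.074, 0.040 and 0.15 for numbers 1, 2 and 3), so the number was not taken as a pairing. Every pool except deleted pool 2 correlated best with its own number, a hint from the data and not the design. With the replicate block 132 genes passed, and Tnfrsf9 stayed the only member called. Dim signal limits the 14 members below the filter.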
